A study of Mus musculus with 18 samples.

Results

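The epidermal growth factor (EGF) receptor family and its ligands were followed in 18 injured mouse kidneys. The group holds 10 genes, the 6 ligands *Egf*, *Tgfa*, *Areg*, *Hbegf*, *Btc* and *Ereg* and the 4 receptors *Egfr*, *Erbb2*, *Erbb3* and *Erbb4*. They were taken as a list of symbols and matched to the Ensembl identifiers of the count files, where all 10 were found among 45706 genes. The study asked how loss of the chemokine *Cxcl12* or of the transcription factor *Myc* in renal tubules affects the early phase after ischemia and reperfusion. RNA was sequenced from kidneys of adult male C57BL/6 mice, with 5 in the *Cxcl12* KO group, 3 in *Cxcl12* Control, and 5 each in *Myc* KO and *Myc* Control. All of these mice carried floxed alleles (F/F) of *Cxcl12* or of *Myc* together with the Pax8rtTA transgene, and all received doxycycline followed by a washout. The KO mice also carried TetOcre, which the control littermates lacked. Ischemia of both kidneys lasted 22.5 min and reperfusion 12 h in every mouse, so the series holds no uninjured kidney. Pax8 directs the recombinase to tubule cells, whereas RNA came from the whole organ, including endothelium, glomeruli, stroma and leukocytes in which the floxed gene stays intact.

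EGF receptor ligands are made as membrane-anchored precursors and are released by metalloproteinases of the ADAM family. The receptors are tyrosine kinases that pair when a ligand binds, and the pairs signal through Ras and ERK, PI3K and AKT, and STAT proteins. ERBB2 binds no known ligand and acts as a partner, ERBB3 has little kinase activity of its own and answers to neuregulins, and ERBB4 binds neuregulins as well as HB-EGF, betacellulin and epiregulin. In the kidney, EGF is a product of the thick ascending limb and the distal convoluted tubule, and the receptor EGFR is known for its part in the recovery of tubule epithelium after acute injury. *Hbegf* is known as an early-induced gene in such injury, and *Areg* as a ligand gene induced by stress and cyclic AMP.

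The genes lie on several chromosomes of GRCm38, with 3 ligands grouped on chromosome 5. *Ereg* (ENSMUSG00000029377, chr5:91074622-91093646), *Areg* (ENSMUSG00000029378, chr5:91139599-91148432) and *Btc* (ENSMUSG00000082361, chr5:91357261-91402994) follow one another there. *Egf* (ENSMUSG00000028017) spans chr3:129677565-129755316, *Tgfa* (ENSMUSG00000029999) spans chr6:86195223-86275719, and *Hbegf* has the identifier ENSMUSG00000024486. Of the receptors, *Egfr* (ENSMUSG00000020122, chr11:16752203-16918158) and *Erbb2* (ENSMUSG00000062312, chr11:98412470-98437716) share chromosome 11. *Erbb3* (ENSMUSG00000018166) spans chr10:128567523-128589652, and *Erbb4* (ENSMUSG00000062209) spans chr1:68032186-69108059. The values of *Egf* leave out some reads, because its exons overlap those of the antisense genes Gm42697 and 6330410L21Rik. Counting without regard to strand set aside 17% of the reads that the strand columns gave to *Egf*, from 14.6% to 19.2% per kidney, and at most 5.00% for any other member in any kidney.

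The bases upstream of 3 members are shown because they mark the extremes of the group, *Areg* as the member that varied most between kidneys, *Erbb2* as the one that varied least, and *Egf* as the ligand with the most reads. Each is the RefSeq sequence (GRCm38.p6) of the 250 bases before the transcription start, written 5′ to 3′ on the strand of the gene, with matches to the searched motifs in capitals.
Areg, chr5:91139349-91139598, plus strand: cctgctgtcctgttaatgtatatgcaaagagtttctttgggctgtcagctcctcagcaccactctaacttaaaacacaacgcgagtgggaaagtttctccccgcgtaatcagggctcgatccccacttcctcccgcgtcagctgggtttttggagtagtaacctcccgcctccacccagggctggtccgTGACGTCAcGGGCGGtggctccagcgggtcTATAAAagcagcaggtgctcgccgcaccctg
Egf, chr3:129755323-129755572, minus strand, the upstream one of its 2 listed starts: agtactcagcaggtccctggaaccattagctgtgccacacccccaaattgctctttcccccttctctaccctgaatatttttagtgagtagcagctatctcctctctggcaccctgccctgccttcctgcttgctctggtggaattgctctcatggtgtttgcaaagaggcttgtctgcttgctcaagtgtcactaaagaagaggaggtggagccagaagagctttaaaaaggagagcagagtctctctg
Erbb2, chr11:98412234-98412483, plus strand: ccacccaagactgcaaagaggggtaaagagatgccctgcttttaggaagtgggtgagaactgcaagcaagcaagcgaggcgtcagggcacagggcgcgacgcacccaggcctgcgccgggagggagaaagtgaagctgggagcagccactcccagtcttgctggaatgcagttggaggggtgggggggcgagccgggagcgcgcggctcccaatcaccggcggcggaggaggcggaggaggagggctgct

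The motifs were searched on both strands in this window. They were the Myc E-box (CACGTG), an AP-1 site (TGANTCA), a cyclic AMP response element (TGACGTCA), a TATA box (TATAAA) and a GC box (GGGCGG). *Areg* held a cyclic AMP response element 61 to 54 bases before its start, a GC box 52 to 47 bases before it and a TATA box 31 to 26 bases before it, none overlapping another. The printed windows of *Egf* and *Erbb2* held none of these letters. The 7 members searched had no E-box and no AP-1 letters, and *Ereg* and *Erbb3* had no entry in the promoter table. Beside *Areg*, *Tgfa* had 2 GC boxes and *Egfr* had 1. Of 32851 upstream windows of the same length, 6.02% held the E-box, 6.75% the AP-1 site, 1.55% the cyclic AMP response element, 12.4% the TATA box and 32.7% the GC box. These matches describe letters in a window and not binding.

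The libraries held between 12918220 and 29749500 reads on genes, and levels are given as CPM, the count per library scaled to a common depth by the TMM method. Unmapped reads made up under 5% in 6 kidneys. These were also the most deeply sequenced (at least 32532582 reads against at most 26415146 in the other 12), and they are called the deeper group here: *Cxcl12* KO 1 and 2, *Myc* KO 3 and 5, and *Myc* Control 1 and 3. The targeted gene was lower in each KO group. For *Cxcl12* the mean was 53.4 ± 7.91 CPM (SD, n = 3) among its controls and 32.2 ± 6.07 CPM (SD, n = 5) among its KO kidneys, with all KO kidneys below all controls (edgeR adjusted p = 0.094, which does not pass). *Myc* fell from 94.8 ± 14.5 CPM (SD, n = 5) to 30.9 ± 3.94 CPM (SD, n = 5) in *Myc* KO kidneys (edgeR adjusted p = 8.8e-05). Each of the 10 cell type marker lists had no gene at 0 throughout any group, though a single read meets this, and *Cd3e* and *Ly6g* had too few reads to be tested. In every kidney each list summed to at least 14.75 CPM. The samples thus held RNA of tubule segments, podocytes, endothelium, stroma and leukocytes, as a whole kidney does. In such bulk RNA, fewer cells of a type and less RNA per cell cannot be told apart.

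All 10 members were expressed 12 h after reperfusion, over a wide range of levels. To compare genes, levels were divided by exon length (RPKM, which is CPM per kilobase of exon). *Hbegf* had the highest median over the 18 kidneys, 31.0 RPKM (17.6 to 51.2), followed by *Egf* with 28.4 RPKM (9.55 to 44.3). The *Egf* value is too low, since 17% of its reads were set aside while its full exon length was used. The order of *Hbegf* and *Egf* is therefore not settled. Next came *Erbb3* with 17.5 RPKM (12.9 to 30.3), *Erbb2* with 12.4 RPKM (9.91 to 14.4) and *Egfr* with 12.0 RPKM (9.45 to 15.7). *Areg* had a median of 9.48 RPKM (1.09 to 18.9). The lower end of the order was formed by *Tgfa* with 3.07 RPKM, *Btc* with 2.31 RPKM, *Erbb4* with 1.42 RPKM and *Ereg* with 0.363 RPKM, and *Ereg* rested on as few as 6 and at most 73 reads per kidney.

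Each gene in this order overlapped its neighbour in range, so the order holds for medians rather than for every kidney. *Erbb3* exceeded *Erbb2* in 18 of 18 kidneys and *Egf* exceeded *Erbb3* in 17. *Hbegf* exceeded *Egf* in 13, with *Egf* values that leave out the reads set aside. *Erbb2* exceeded *Egfr* in 10 kidneys and *Egfr* exceeded *Areg* in 11, which leaves these 3 without a settled order. *Areg* was above *Tgfa* in 16 kidneys, *Tgfa* above *Btc* in 15, *Btc* above *Erbb4* in 15 and *Erbb4* above *Ereg* in 17.

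**Figure D1:**
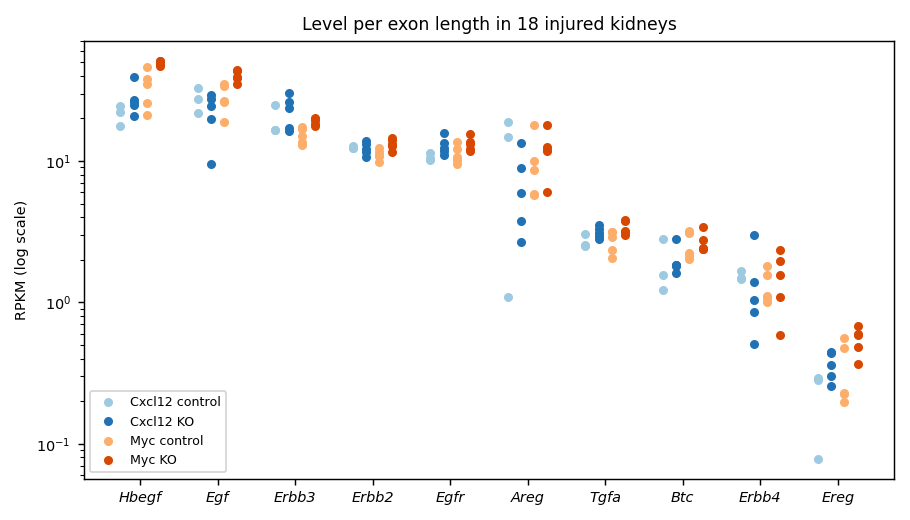
Level of each member in RPKM on a log scale (vertical axis) in each of 18 kidneys, coloured by group, with genes ordered from left to right by their median. *Hbegf* and *Egf* stand highest, *Erbb2* and *Egfr* form narrow columns, and *Areg* spreads from 1.09 to 18.9 RPKM.

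The members differed in how much they varied between kidneys. The highest kidney exceeded the lowest 17.4 times for *Areg*, 8.72 times for *Ereg*, 5.84 times for *Erbb4* and 4.64 times for *Egf*, but 1.66 times for *Egfr* and 1.46 times for *Erbb2*. Both extremes of *Areg* lay in one group, *Cxcl12* Control, with 24 reads in replicate 1 and 428 in replicate 2. The standard deviation of *Areg* was 80.6% of the mean in that group, 62.6% in *Cxcl12* KO, 52.4% in *Myc* Control and 35.0% in *Myc* KO kidneys. At the other end, it was 1.47% of the mean for *Erbb2* in *Cxcl12* Control and 3.54% for *Hbegf* in *Myc* KO kidneys.

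The first comparison asked whether loss of *Cxcl12* in the tubule changed these genes. None of the 10 members passed the test in *Cxcl12* KO against *Cxcl12* Control kidneys (edgeR quasi-likelihood test, Benjamini-Hochberg adjusted p under 0.05), as was the case for all 15154 genes tested (0% called). At an unadjusted p under 0.05, 1 member passed, *Egfr*, against 13% of all genes tested, and DESeq2 called 0 members (2.34% of all genes). The log2 fold change was positive for 6 of 10 members (50.2% of all genes), with a median of 0.16 against 0.00 over all genes. No member had KO and control kidneys that did not overlap, which held for 9.69% of all genes.

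The ligand *Egf* was measured at 308, 246 and 372 CPM in *Cxcl12* Control kidneys and at 332, 222, 276, 108 and 307 CPM in *Cxcl12* KO kidneys 1 to 5. One KO kidney, replicate 4, lay far under all others, and the remaining KO kidneys overlapped the controls. With a log2 fold change of -0.31, *Egf* did not pass (SE 0.29, edgeR adjusted p = 0.67). Its size rested on single kidneys, being -0.12 without KO replicate 4 and -0.16 without control replicate 3.

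*Hbegf*, whose product is cut from the membrane as soluble HB-EGF, was measured at 85.3, 107 and 118 CPM in the controls and at 126, 121, 191, 101 and 131 CPM in the KO kidneys. All KO kidneys but replicate 4 were above the highest control. *Hbegf* had a log2 fold change of 0.36 (SE 0.19, edgeR adjusted p = 0.44), which was 0.20 without KO replicate 3 and 0.24 without control replicate 1.

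*Areg* was measured at 1.33, 23.0 and 17.9 CPM in the controls and at 7.17, 16.4, 10.9, 3.27 and 4.58 CPM in the KO kidneys. The KO values lay inside the span of the controls, which covered the whole range of the series. The log2 fold change of *Areg* was -0.73 with an SE of 0.66, and its 95% interval ran from -2.19 to 0.74, so these kidneys do not settle the sign of a change. With 1 kidney left out it ran from -1.26 to -0.17, the extremes being without control replicates 1 and 2.

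*Egfr*, the receptor that EGF, TGF-alpha and amphiregulin share, had 118, 128 and 115 CPM in the controls and 134, 139, 125, 151 and 178 CPM in the KO kidneys. All KO kidneys but replicate 3 were above the highest control, and the log2 fold change was 0.27 (SE 0.11, edgeR unadjusted p = 0.038, adjusted p = 0.36).

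*Erbb3* had 98.9, 100.2 and 149 CPM in the controls and 143, 102, 97.7, 182 and 156 CPM in the KO kidneys, with wide overlap (log2 fold change 0.23, SE 0.21, edgeR adjusted p = 0.67). *Erbb2* was nearly level in the controls, at 64.9, 64.5 and 66.3 CPM, and the KO kidneys lay on either side, from 55.1 to 71.6 CPM. Its log2 fold change was -0.04, and the 95% interval from -0.24 to 0.17 bounds a change at 1.12-fold upward and 0.846-fold downward.

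*Erbb4* had 20.6, 18 and 18.3 CPM in the controls, while the KO kidneys had 36.9, 17.2, 12.8, 10.5 and 6.32 CPM. The KO kidneys with the first 2 of these values belong to the deeper group. Both the highest and the lowest *Erbb4* level of the series thus lay in the *Cxcl12* KO group. The log2 fold change was -0.16 (SE 0.43, edgeR adjusted p = 0.91), and among the kidneys outside the deeper group, which leaves 3 KO kidneys against 3 controls, it was -0.96 (edgeR adjusted p = 0.13).

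The other ligands were *Tgfa*, *Btc* and *Ereg*. *Tgfa* ranged from 18.3 to 23.0 CPM in KO and from 16.1 to 19.8 CPM in control kidneys (log2 fold change 0.21, SE 0.11, edgeR adjusted p = 0.45). *Btc* ranged from 7.26 to 12.8 CPM and from 5.54 to 12.7 CPM (0.10, SE 0.27). *Ereg* ranged from 1.06 to 1.83 CPM and from 0.323 to 1.19 CPM, with a log2 fold change of 0.72 and a 95% interval from -0.16 to 1.59 that reflects its few reads.

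The second comparison asked the same of *Myc*. None of the 10 members passed in *Myc* KO against *Myc* Control kidneys with edgeR, where 1.65% of 14936 genes were called, 0.355% upward and 1.29% downward. At an unadjusted p under 0.05, 5 members passed, *Egf*, *Tgfa*, *Hbegf*, *Erbb2* and *Erbb3*, all with higher KO means, against 21.9% of all genes and 10.6% in the upward direction. DESeq2 called 3 members, *Erbb3* (adjusted p = 0.014), *Egf* (0.018) and *Hbegf* (0.022), and gave *Ereg* no adjusted p, against 7.63% of all genes called by DESeq2. Limma-voom called 0. The calls therefore depend on the tool, and the genes are given by their values.

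All 10 log2 fold changes were positive, against 49.9% over all genes tested, with a median of 0.31 against -0.00. Outside the deeper group, with 3 kidneys on each side, 8 of 10 were positive and the median was 0.43. Within the deeper group, with 2 kidneys on each side, 10 of 10 were positive and the median was 0.32. Without *Myc* KO replicate 5, 8 of 10 were positive. The members share the same kidneys, so these counts are not 10 separate observations.

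*Hbegf* was measured at 125, 169, 223, 102 and 183 CPM in *Myc* Control kidneys 1 to 5 and at 238, 234, 245, 248 and 227 CPM in *Myc* KO kidneys 1 to 5. The KO kidneys lay close together and all of them above every control, while the controls differed among themselves 2.20 times. *Hbegf* and *Erbb3* were the 2 members of 10 with all KO kidneys above all controls, which held for 2.04% of all genes. For *Hbegf* the log2 fold change was 0.57 (SE 0.17, 95% interval 0.20 to 0.94, edgeR adjusted p = 0.10). Without *Myc* Control replicate 3, the highest control, it was 0.72 and passed the edgeR test (adjusted p = 0.024). It did not pass with any of the other kidneys left out, with a lowest value of 0.45 and a largest edgeR adjusted p of 0.20. Leaving out 1 kidney also moved the calls over all genes, from 21 to 877, against 246 with all kidneys. The mean was 160.3 ± 48.1 CPM (SD, n = 5) in controls and 238 ± 8.43 CPM (SD, n = 5) in KO kidneys.

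*Egf* had 295, 297, 397, 212 and 382 CPM in the controls and 491, 445, 397, 436 and 499.5 CPM in the KO kidneys. The groups met at one point, since the lowest KO kidney (396.7 CPM) and the highest control (397.3 CPM) were almost equal, and the other KO kidneys were above every control. *Egf* had a log2 fold change of 0.52 (SE 0.15, 95% interval 0.19 to 0.85, edgeR adjusted p = 0.096). Without *Myc* Control replicate 3 it was 0.61, with an edgeR adjusted p of 0.037. With each of the other kidneys left out it did not pass, with a lowest value of 0.40 and a largest edgeR adjusted p of 0.20.

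*Erbb3*, the neuregulin receptor with little kinase activity, had 101, 81.4, 90.4, 104 and 77.6 CPM in the controls. The KO kidneys had 107, 118, 117, 120.3 and 110.4 CPM, so the lowest KO kidney was just above the highest control. Its log2 fold change was 0.34 (SE 0.09, edgeR adjusted p = 0.075). With a term for the deeper group added to the model it was 0.34 with an edgeR adjusted p of 0.041. That term also raised the number of calls over all genes tested. With each kidney left out in turn *Erbb3* did not pass, with edgeR adjusted p from 0.059 to 0.19.

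*Erbb2*, the partner receptor, had 56.7, 56.7, 51.6, 60.3 and 64.7 CPM in the controls and 68.8, 73.0, 66.8, 75.3 and 60.7 CPM in the KO kidneys. The groups overlapped only through KO replicate 5 and control replicate 5. The log2 fold change was 0.25 (SE 0.08, edgeR adjusted p = 0.12). It was 0.25 with an edgeR adjusted p of 0.036 with the term for the deeper group, which raised the calls over all genes. With each kidney left out in turn *Erbb2* did not pass, with edgeR adjusted p from 0.11 to 0.25.

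*Tgfa* had 20.4, 15.2, 20.6, 13.4 and 18.8 CPM in the controls and 20.8, 19.4, 20.5, 24.4 and 24.8 CPM in the KO kidneys. The groups overlapped near 20 CPM, with the KO kidneys in the upper part of the range. For *Tgfa* it was 0.31 on the log2 scale (SE 0.13, edgeR unadjusted p = 0.032, adjusted p = 0.19).

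*Egfr* had 154, 122, 138, 116 and 107 CPM in the controls and 175, 149.9, 153, 132 and 137 CPM in the KO kidneys, which overlapped (log2 fold change 0.23, SE 0.11, edgeR adjusted p = 0.23). *Ereg* had between 0.809 and 2.30 CPM in controls and between 1.52 and 2.81 CPM in KO kidneys. At 0.68, the log2 fold change of *Ereg* was the largest of the group, with an SE of 0.32 (edgeR adjusted p = 0.23).

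*Areg*, *Btc* and *Erbb4* showed no separation. *Areg* had between 6.97 and 22.0 CPM in controls and between 7.32 and 21.8 CPM in KO kidneys (log2 fold change 0.31, SE 0.33). *Btc* had means of 11.5 ± 2.52 CPM (SD, n = 5) and 12.1 ± 2.01 CPM (SD, n = 5), and a log2 fold change of 0.09 (SE 0.16). *Erbb4* spread from 7.27 to 29.2 CPM in KO and from 12.5 to 22.4 CPM in control kidneys, and its log2 fold change of 0.22 (SE 0.30) was -0.14 outside and 0.57 inside the deeper group.

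**Figure D2:**
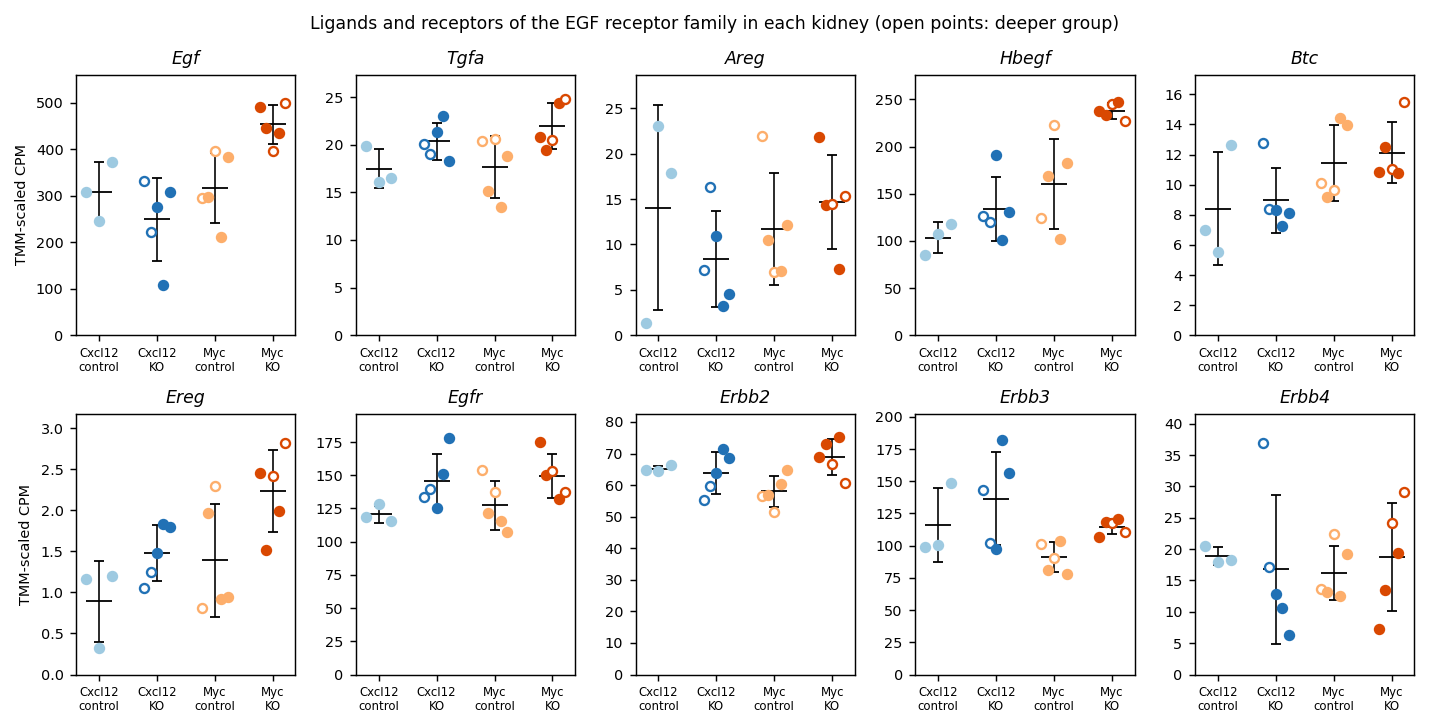
TMM-scaled CPM (vertical axes, each starting at 0) of the 10 members in each of the 18 kidneys by group, with open points for the deeper group and bars for the mean and SD. The *Myc* KO kidneys form tight clusters for *Hbegf* (227 to 248 CPM) and *Erbb3* (107 to 120.3 CPM), in both cases above the *Myc* Control kidneys, while *Areg* and *Erbb4* scatter within groups.

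Markers of kidney cell types were measured in the same libraries. No marker gene was called in either cohort with edgeR. After *Myc* loss, 12 of 44 markers tested had an unadjusted p under 0.05, against 21.9% of all genes. After *Cxcl12* loss, 18 of 44 had such a p, against 13% of all genes. In *Myc* KO kidneys, the summed level of 4 endothelial markers ran from 551 to 769 CPM against 394 to 671 CPM in controls, and that of 4 podocyte markers from 709 to 805 CPM against 419 to 732 CPM. For the thick ascending limb and distal convoluted tubule, which make *Egf*, the summed markers overlapped between groups. They ran from 3429 to 4500.4 CPM and from 661 to 1064 CPM in *Myc* KO, against 2844 to 4927 CPM and 537 to 980.1 CPM in *Myc* Control kidneys. These sums are mostly *Umod* and *Slc12a3*, and single markers differed in direction, with a log2 fold change of -0.74 for *Kcnj1* of the thick ascending limb (edgeR adjusted p = 0.052) and 0.81 for *Trpm6* of the distal convoluted tubule (edgeR adjusted p = 0.11) in *Myc* KO kidneys. *Havcr1*, which encodes KIM-1 of the injured tubule, had -1.32 there (SE 0.43, edgeR adjusted p = 0.12). The other injured tubule markers did not share this fall, with *Lcn2* at 0.39, *Vcam1* at 0.43, *Krt20* at -0.02 and *Sox9* at -0.03. All 5 summed to 2885 to 3372 CPM in *Myc* KO and 2611 to 3421 CPM in *Myc* Control kidneys. In *Cxcl12* KO kidneys, the 5 markers of injured tubule summed to 2618 to 3165 CPM against 1643 to 2463 CPM in controls. Their log2 fold changes were unlike, with *Lcn2* at 0.84, *Krt20* at 0.65, *Sox9* at 0.44, *Havcr1* at 0.10 and *Vcam1* at -0.14. The 6 proximal tubule markers summed to 3755 to 4245 CPM in *Cxcl12* KO kidneys against 4468 to 5148 CPM. The 4 neutrophil markers ran from 23.2 to 98.1 CPM against 14.8 to 20.5 CPM there, and from 103.8 to 194 CPM in *Myc* KO against 36.5 to 166 CPM in *Myc* Control kidneys. The part of these differences in the values of the members was not tested.

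A difference between the cohorts was tested directly, as the *Myc* KO effect minus the *Cxcl12* KO effect over all 18 kidneys. None of the 10 members passed with edgeR (11 of 15903 genes did, 0.0692%), DESeq2 called 0 (1.97% of all genes), and 2 members had an unadjusted p under 0.05 (11.4% of all genes). These were *Egf*, with a difference of 0.83 log2 units (SE 0.34, edgeR adjusted p = 0.34), and *Erbb2*, with 0.28 (SE 0.12, edgeR adjusted p = 0.38). *Egf* was the member whose estimates pointed furthest apart relative to their error, 0.52 after *Myc* loss and -0.31 after *Cxcl12* loss. With 1 kidney left out, the difference for *Egf* ran from 0.64 to 0.96. *Areg* had a larger difference, 1.03 log2 units, but with an SE of 0.78. For *Hbegf* (0.20, SE 0.27), *Egfr* (-0.04, SE 0.16) and *Tgfa* (0.09, SE 0.18) the difference was smaller than its error.

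**Figure D3:**
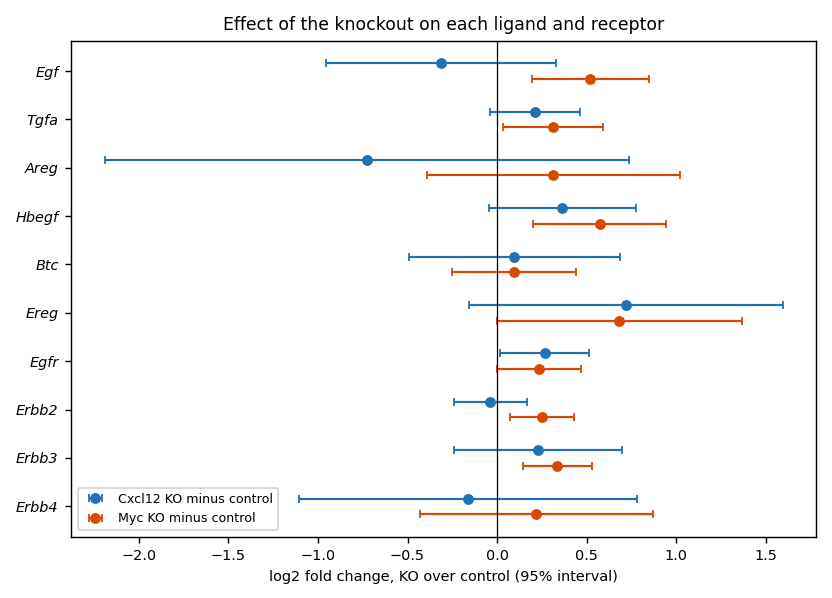
Log2 fold change of KO over control (horizontal axis) with its 95% interval for each member, in blue for the *Cxcl12* and in red for the *Myc* cohort. All *Myc* estimates lie right of 0, *Hbegf* at 0.57 and *Egf* at 0.52, while *Areg* and *Erbb4* have the widest intervals in the *Cxcl12* cohort.

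The genes that act with the receptors were counted in 6 lists of 81 genes, of which 78 were tested in each cohort. *Epgn*, *Nrg2* and *Nrg3*, which encode other ligands of the family, had too few reads. In the *Myc* cohort 2 of the 78 rose and 0 fell (edgeR), against 0.355% and 1.29% of all genes. A positive log2 fold change was found for 66, against 49.9% of all genes, and the median was 0.17. The *Cxcl12* cohort had 0 of 78 called with edgeR (0% of all genes) and a median of 0.14. There, 17 had an unadjusted p under 0.05, against 13% of all genes, and 15 of these were positive, against 6.41% of all genes. DESeq2 called 1 of the 78 in that cohort, against 2.34% of all genes.

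Of the genes that rose in *Myc* KO kidneys, *Socs5* was listed under feedback inhibitors and receptor turnover and *Fos* under ERK-responsive genes. Receptor activity was not measured. *Socs5*, which promotes the breakdown of EGFR, rose from 53.9 ± 3.88 CPM (SD, n = 5) to 72.7 ± 6.72 CPM (SD, n = 5), with a log2 fold change of 0.44 (SE 0.08, edgeR adjusted p = 0.025). *Fos*, an immediate-early gene that ERK signaling induces, rose from 62.3 ± 15.2 CPM (SD, n = 5) to 107.8 ± 17.5 CPM (SD, n = 5), with a log2 fold change of 0.79 (SE 0.17, edgeR adjusted p = 0.041). For both, all KO kidneys were above all controls. The calls were close to the threshold. Without *Myc* KO replicate 2, 3 or 5 or *Myc* Control replicate 2 or 4 neither gene passed, *Fos* also failed without *Myc* KO replicate 4 or *Myc* Control replicate 5, and the largest edgeR adjusted p among these was 0.12. Without *Myc* Control replicate 3, 12 genes of the lists passed. Calls over all genes also moved with 1 kidney left out, from 21 to 877, against 246 of 14936 with all kidneys. The 12 are therefore not read as a result about the lists. Outside the deeper group neither of these 2 genes passed, with edgeR adjusted p = 0.085 for *Socs5* and 0.056 for *Fos*. In the *Cxcl12* cohort, *Socs5* had a log2 fold change of 0.29 (SE 0.09, edgeR adjusted p = 0.23) and *Fos* one of 0.98 (SE 0.39, edgeR adjusted p = 0.32).

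Feedback inhibitors, which act on the receptors or on ERK, and genes of receptor turnover formed a list of 18 genes. In *Myc* KO kidneys 18 of 18 had a positive log2 fold change (median 0.30), against 49.9% of all genes. In *Cxcl12* KO kidneys it was positive for 14 of 18 (median 0.18), against 50.2%. Of these genes, 11 were positive with an unadjusted p under 0.05 in *Myc* KO kidneys, against 10.6% of all genes. *Spry4*, an inhibitor of Ras signaling, had 0.49 in *Cxcl12* KO (SE 0.15, edgeR adjusted p = 0.24). Of the ERK-responsive genes, 14 of 17 were positive in *Myc* KO (49.9% of all genes, list median 0.42) and 15 of 17 in *Cxcl12* KO (50.2%, list median 0.38). *Maff* had 0.69 (SE 0.24, edgeR adjusted p = 0.28) and *Egr1* 0.57 (SE 0.21, edgeR adjusted p = 0.30) in the latter.

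Of the ligand shedding genes, 8 of 10 were positive in *Myc* KO (49.9% of all genes, list median 0.11) and 5 of 10 in *Cxcl12* KO kidneys (50.2%, list median 0.02). *Rhbdf2*, the iRhom that guides ADAM17 to the surface, had a log2 fold change of 0.25 in *Myc* KO (edgeR adjusted p = 0.11) and 0.21 in *Cxcl12* KO kidneys (edgeR adjusted p = 0.47). *Adam9*, a metalloproteinase, had 0.18 in *Myc* KO, and *Timp3*, an inhibitor of ADAM17, had -0.32 in *Cxcl12* KO kidneys. The neuregulin genes *Nrg1* and *Nrg4* had -0.22 and 0.11 in *Myc* KO and -0.05 and 0.26 in *Cxcl12* KO kidneys.

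The adaptors and kinases of the Ras and ERK cascade had a median of 0.08 in *Myc* KO and 0.14 in *Cxcl12* KO kidneys. In each, 12 of 16 were positive, against 49.9% and 50.2% of all genes. The smallest p-values belonged to the adaptors *Gab2* (0.26, edgeR adjusted p = 0.11) and *Shc1* (0.16, edgeR adjusted p = 0.23) in *Myc* KO kidneys. In *Cxcl12* KO kidneys, *Nras*, which encodes a Ras protein, had 0.30 (edgeR adjusted p = 0.14). In the branch of PI3K, STAT and phospholipase, 13 of 15 were positive in *Myc* KO (49.9% of all genes, list median 0.12). In *Cxcl12* KO, 8 of 15 were positive (50.2% of all genes, list median 0.04). The kinase gene *Src* had 0.26 and the phospholipase gene *Plcg1* 0.20 in *Myc* KO, while *Stat5a* had -0.27 in *Cxcl12* KO kidneys.

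**Figure D4:**
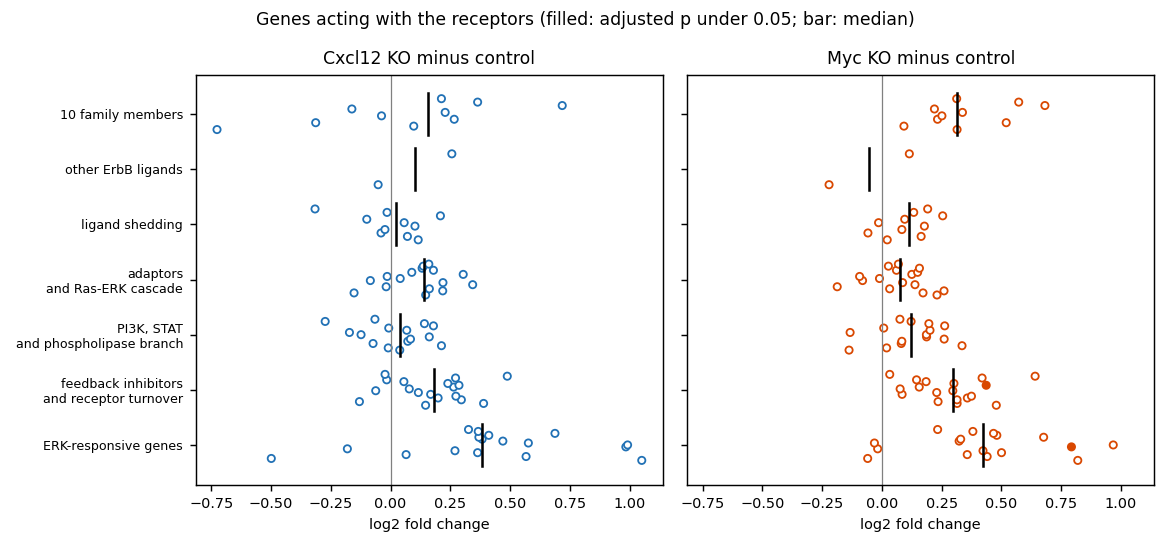
Log2 fold change of KO over control (horizontal axis) of each tested gene by list, *Cxcl12* cohort on the left and *Myc* cohort on the right, with a bar at each list's median and filled points for an adjusted p under 0.05. *Socs5* and *Fos* are the 2 filled points. The medians of the feedback and receptor turnover list (0.30) and the ERK-responsive genes (0.42) lie farthest right in *Myc* KO among the pathway lists.

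Within groups, the members did not move as one. After the mean of each group was subtracted, *Egf* and *Hbegf* correlated at r = 0.62 over the 18 kidneys, *Erbb2* and *Erbb4* at -0.61, *Egfr* and *Erbb4* at -0.54, and *Egf* and *Tgfa* at 0.10. These values describe 18 libraries that differ in depth and may differ in tissue composition, and only group means were subtracted. In each KO group the kidneys of the deeper group had higher *Erbb4* and lower *Erbb2* levels than the others. In *Myc* Control kidneys *Erbb4* overlapped between them. The part of the deeper group in these correlations was not tested. *Egf* followed the distal nephron, with r = 0.76 to *Calb1* of the distal convoluted tubule and 0.73 to *Slc12a1* of the thick ascending limb. This was not particular to *Egf*, since *Erbb4* had 0.73 and *Btc* 0.68 to *Slc12a1* as well. *Hbegf* had 0.79 to *Trpm6* and 0.61 to *Slc12a3* of the distal convoluted tubule. *Egfr* had 0.57 to *Lrp2*, a proximal tubule marker. *Hbegf* also had 0.85 to *Atf3*, 0.78 to *Lcn2* and -0.75 to *Havcr1*, which are all induced in injured tubules.

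The genes with the pattern most like each member over the 18 kidneys were found among 13730 genes with a mean of at least 1 CPM by the same measure. For *Egf* they were *Ndrg2* (r = 0.90) and the sodium channel gene *Scnn1a* (0.88). For *Hbegf* they were the small nuclear RNA gene *Rn7sk* (0.94) and the immediate-early gene *Fosb* (0.92). *Tgfa* was most like *Dlg3* (0.90) and *Col12a1* (0.88), *Areg* most like *Padi2* (0.87) and *Trmt61b* (0.86), *Btc* most like *Oxct1* (0.79) and *Sh3yl1* (0.77), and *Ereg* most like *Il20rb* (0.87) and 1110025M09Rik (0.81). Among the receptors, *Egfr* was most like *Stxbp5* (0.91) and *Ube4b* (0.90), *Erbb2* like *Hnrnpf* (0.92) and 2210016L21Rik (0.91), *Erbb3* like *Lpin3* (0.89) and *Slc39a14* (0.88), and *Erbb4* like *Rps6ka6* (0.91) and *Fst* (0.91). Each pair is the top of a search over all of these genes, which by itself selects high values, and no gene of the list of 10 was among the 2 most alike to another.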

How the data were processed

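The deposited counts were made by the authors, who used Trimmomatic 0.32 for trimming and STAR 2.4.0 for alignment to GRCm38 and counting by gene, and did not normalize them; these versions are from the submitters' processing notes. The counts that ignore strand were used for 45706 genes, of which 30346 had a count. Names, positions and exon lengths came from GENCODE vM21, and upstream sequences from RefSeq. Proteins were not used here, and the upstream sequence of *Hbegf* and the values of some pathway genes that the naming rule chose are not reported here.

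In each cohort, genes were filtered (filterByExpr), libraries TMM-scaled, and KO and control kidneys compared by the quasi-likelihood test in edgeR 4.0.16 (R 4.3.3), with Benjamini-Hochberg adjustment over all genes tested. Standard errors were the log2 fold change divided by the square root of F. CPM and RPKM were scaled over 18 kidneys. Alternatives used DESeq2 1.42.0, limma 3.58.1, upper-quartile scaling, no filter on low counts, replicate blocks, a term for the deeper group, subsets by it, one fit of all kidneys and leaving out each kidney. The fit inside the deeper group was added after the data were seen. Counts of all 33 pairs of kidneys of a group differed beyond sampling noise (chi-square per degree of freedom at least 6.31), so each kidney was 1 sample. The edgeR p-values weigh the difference between groups against the spread between these kidneys, which edgeR moderates across genes.

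Named genes are the members, the targets, per pathway list the genes called or otherwise the 2 with the smallest p, and the 2 most like each member. Markers were named to describe the kidneys. The members, lists and tests were chosen with earlier results of these data known. The fit was tested on simulated data. Python 3.11.15, pandas 2.3.3 and matplotlib 3.10.9 made tables and figures.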

Additional observations from a re-analysis of the deposited data

Results flagged for a closer look

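*Btc*, the betacellulin gene, had 1 kidney far from its group. In *Cxcl12* KO replicate 1 it stood at 12.8 CPM, and the next highest of the 5 *Cxcl12* KO kidneys at 8.37 CPM. This gap was 0.799 of the range of the group, above Dixon's critical value of 0.71. With 30 groups of 5 kidneys examined over the members, chance alone flags about 1 in 20. The same kidney had the highest *Erbb4* level of the series, 36.9 CPM, and belongs to the deeper group.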

How the results depend on the processing

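Of the log2 fold changes of members under other settings, 183 kept their direction and their side of the threshold, 12 reversed and 5 newly passed. With 1 kidney left out, 332 kept both, 26 reversed and 2 newly passed. In the *Cxcl12* cohort, the replicate block gave *Areg* 0.12, *Erbb3* -0.011 and *Erbb4* 0.12. The term for the deeper group gave *Btc* -0.095 and *Erbb2* 0.053, and the kidneys outside it gave *Btc* -0.10 and *Erbb2* 0.047. In the *Myc* cohort, the kidneys outside the deeper group gave *Btc* -0.13 and *Erbb4* -0.14. The difference between cohorts was 0.027 for *Btc* with that term, and 0.16 for *Ereg* and 0.10 for *Egfr* with the block. With 1 kidney left out, *Cxcl12* KO effects ran from -0.13 to 0.51 for *Btc*, -0.082 to 0.0088 for *Erbb2* and -0.69 to 0.040 for *Erbb4*, and *Myc* KO effects from -0.016 to 0.19 for *Btc* and -0.00090 to 0.42 for *Erbb4*. Differences ran from -0.0025 to 0.15 for *Tgfa*, -0.43 to 0.21 for *Btc*, -0.31 to 0.36 for *Ereg*, -0.10 to 0.048 for *Egfr* and -0.12 to 0.23 for *Erbb3*. The cause of these changes was not tested.

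Calls moved more. *Myc* members called were 3 with DESeq2, 2 with the term and 0 to 2 with 1 kidney left out. *Myc* pathway genes called were 13 with DESeq2, 7 with the term, 1 with the block, 0 outside and 0 inside the deeper group, and 0 to 12 with 1 kidney left out. In the *Cxcl12* cohort, DESeq2 and the term each called 1 pathway gene. Over all genes, *Cxcl12* calls were 355 with DESeq2, 214 without a filter, 123 with the term, 80 outside the deeper group, 25 in the fit of all kidneys and 0 to 15 with 1 kidney left out. *Myc* calls over all genes were 1139, 18 with the block, 954 with the term, 8 outside, 0 inside, 683 in the fit of all kidneys and 21 to 877, the first value from DESeq2 and the last span with 1 kidney left out. Calls on the difference were 314 with DESeq2, 133 with the term, 1 with the block and 1 to 75. Fits outside or inside the deeper group have fewer kidneys. *Socs5* did not pass in *Myc* KO kidneys with the block (edgeR adjusted p = 0.063), nor *Fos* in the fit of all kidneys (edgeR adjusted p = 0.093), while *Cxcl12* passed in its own cohort with DESeq2 (adjusted p = 0.0017) and in edgeR without a filter (adjusted p = 0.011).

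Kidneys with equal replicate numbers correlated little on average. The mean r was 0.07 over 3 *Cxcl12* pairs (-0.03 to 0.13) and 0.05 over 5 *Myc* pairs (-0.21 to 0.40). For unequal numbers the means were -0.02 and -0.01. The deeper group was not removed from these values, and the highest equal pair, *Myc* KO 3 and *Myc* Control 3, lay inside it. With that and so few equal pairs, these means cannot tell whether the numbers pair the kidneys. The numbers were not taken as a pairing, and the block called 0 members in either cohort. Depth limits *Ereg*, with 6 to 73 reads per kidney.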

Other observations

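The control kidneys of the *Cxcl12* and *Myc* lines, both floxed and injured alike, can be set side by side without a test. *Hbegf* had 104 ± 16.6 CPM (SD, n = 3) in the controls of the *Cxcl12* line against 160.3 ± 48.1 CPM (SD, n = 5) in those of the *Myc* line, and *Fos* had 16.4 ± 2.80 CPM (SD, n = 3) and 62.3 ± 15.2 CPM (SD, n = 5). *Erbb3* had 116 ± 28.5 CPM (SD, n = 3) and 90.9 ± 11.6 CPM (SD, n = 5). *Egf* was nearly alike, with 309 ± 63.2 CPM (SD, n = 3) and 317 ± 75.3 CPM (SD, n = 5). The floxed line cannot be told apart from any other difference between the cohorts. Among the feedback inhibitors, chosen here after their values were seen, *Errfi1*, which binds and blocks EGFR, had a log2 fold change of 0.37 (SE 0.09, edgeR adjusted p = 0.063) and *Spry2* one of 0.42 (SE 0.11, edgeR adjusted p = 0.083) in *Myc* KO kidneys.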
